A study of Mus musculus with 18 samples.

Results

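Mouse embryos that had received an siRNA against Echs1 (siEchs1) were compared with embryos that had received a control siRNA (siCon), both collected at the stage labelled L2C, taken here as late 2-cell. The comparison uses 6 of the 18 libraries of a series on histone crotonylation, the 3 titled L2C siEchs1 and the 3 titled L2C siCon, and every gene measured in them. The other libraries are 6 of the same siRNAs at the earlier stage labelled E2C and 6 of E2C embryos from zygotes given DMSO, sodium acetate or sodium crotonate. Pools of 5 to 10 embryos were lysed together, and their poly(A) RNA was copied whole by the Smart-seq2 protocol. By the labels, the siRNA is the only difference between the groups. Strain, mating, siRNA sequence and dose, and the hours of delivery and collection are not given there. Nothing says that the tubes came from separate litters or days, so the p-values measure only the spread between these tubes, which may be technical. A value per gene is in FPKM, a fragment count scaled by exon length and library size, and the libraries of a group are always given in the order of their title numbers 1, 2 and 3.

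Echs1 encodes the short-chain enoyl-CoA hydratase of the mitochondrial matrix, which adds water to crotonyl-CoA in the oxidation of fatty acids and branched-chain amino acids. Crotonyl-CoA is also the donor for histone crotonylation, a lysine acylation written by acyltransferases such as p300 and removed by class I deacetylases and sirtuins. In the mouse, the 2-cell stage is when the embryo's own genome is switched on: a set of 2-cell genes is transcribed for a short time, genes for ribosome production and growth follow, and the RNA that the oocyte had stored is degraded.

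Echs1 itself (ENSMUSG00000025465.13, chromosome 7, 140105710 to 140116476, minus strand in mm10, a protein-coding gene) was measured at 38.6, 39.2 and 24.4 FPKM with siCon, against 0.89, 4.32 and 4.25 FPKM with siEchs1. Every siEchs1 library lay below every siCon library, with a log2 fold change -3.19 ± 0.52, adjusted p = 0.000435. The value after ± is the standard error (SE) of the fit, and a log2 fold change is siEchs1 over siCon after adding 1 to FPKM, so that the change of a gene with low FPKM is understated. At E2C the same gene was at 30.5, 27.5 and 32.5 FPKM in siCon E2C and 0.71, 5.88 and 3.82 FPKM in siEchs1 E2C, a log2 fold change of -3.02.

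The libraries of the groups differed in more than single genes. Between 15043 and 16638 genes reached 1 FPKM in the siCon L2C libraries and between 14044 and 14627 in siEchs1 L2C. In siCon 7.62% to 11.2% of the FPKM total belonged to mitochondrially encoded genes, and in siEchs1 0.834% to 2.28%. The 100 most abundant genes held 29.5% to 32.7% of it in siCon but 21.8% to 21.95% in siEchs1. For each of these 3 quantities the groups did not overlap, and the two-sided exact permutation p was 0.1, the smallest that 3 against 3 libraries can give. Libraries of 1 group resembled each other (Spearman's rho over genes 0.861 to 0.895 in siCon and 0.908 to 0.937 in siEchs1). In bulk RNA, fewer cells of a kind and less RNA per cell cannot be told apart.

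Other cell types could have been collected along with the embryos, so their markers were checked. The summed level of 20 cumulus and granulosa markers was 119 to 160 FPKM in siCon and 14.6 to 22.6 FPKM in siEchs1, 14 of the 20 were under 1 FPKM in all 6 libraries, and 5 were tested, of which 1 was higher and 3 were lower. The main contributor was Amhr2, the receptor of anti-Müllerian hormone, at 104, 91.8 and 145 FPKM with siCon, against 6.47, 11.7 and 1.49 FPKM with siEchs1. The 10 blood markers summed to 138 to 161 FPKM in siCon and 4.59 to 28.5 FPKM in siEchs1. Among them, Hba-a1, an alpha globin, was at 70.9, 104 and 104 FPKM with siCon, against 12.1, 0.66 and 5.39 FPKM with siEchs1. The 9 oviduct markers summed to 5.82 to 18.7 FPKM in siCon and 1.41 to 1.87 FPKM in siEchs1, and the 12 sperm and testis markers to 28 to 31.0 FPKM and 47.0 to 89.7 FPKM, with Smcp at 0 throughout. Of 6 sperm and testis markers tested, 0 were higher and 2 lower. Without siEchs1 E2C library 3 the counts were 2 and 2. The summed levels of cumulus, blood and oviduct markers were thus higher in the siCon libraries, beside every group of genes below that was lower in siEchs1. These sums rest on few genes: the cumulus sum came mainly from Amhr2, and 4 of the 10 blood and 1 of the 9 oviduct markers were tested. The part of these markers in the results below was not tested. Among 7 genes that mark the 2-cell embryo the sum was 1095 to 1597 FPKM in siCon and 71.9 to 175.5 FPKM in siEchs1, and 6 of the 7 were lower. Among 7 oocyte genes the sum was 1074 to 1430 FPKM in siCon and 9934 to 13800 FPKM in siEchs1, and 6 of the 7 were higher. Both sets of markers were thus present in both groups, in different proportions.

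Of 17652 genes tested, 8611 were called at an adjusted p under 0.05 (48.8%). Of these, 3866 were higher in siEchs1 (21.9% of the genes tested) and 4745 were lower (26.9%). With quantile normalization the counts were 4375 higher and 4241 lower. With a change of at least 2-fold added, 3562 were higher (20.2%) and 4453 lower (25.2%). At least 16-fold changes were found for 137 of the higher and 186 of the lower genes. The libraries of the groups did not overlap for 5379 genes that were higher in siEchs1 (30.5%) and for 5762 that were lower (32.6%). The median log2 fold change over all genes tested was -0.08. A count for any gene list is read below against these shares of 21.9% and 26.9%.

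Within a group the libraries were not alike in how far they moved. Among the 4745 lower genes, siEchs1 library 3 held the lowest of the 3 siEchs1 values in 56.2%, library 1 in 27.6% and library 2 in 16.2%. Among the 3866 higher genes, siEchs1 library 1 held the highest value in 44.9%, library 3 in 28.8% and library 2 in 26.3%. For the same higher genes, siCon library 3 was the lowest siCon library in 63.2%.

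**Figure D1:**
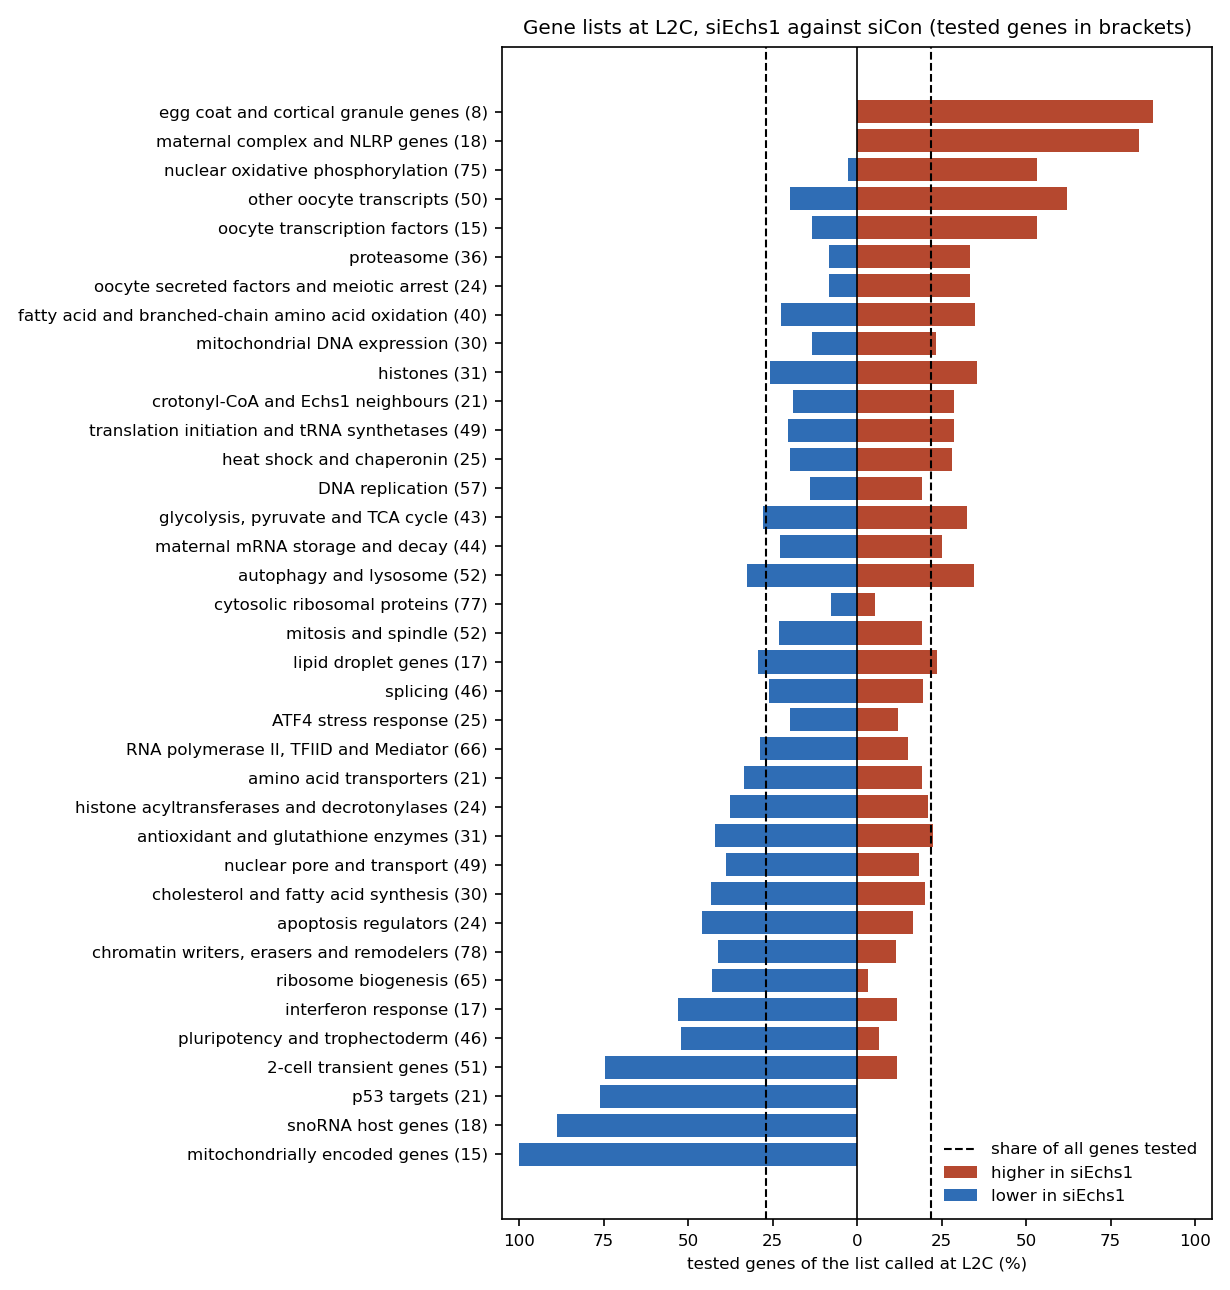
Share of the tested genes of each list that were called at L2C, with genes higher in siEchs1 to the right and lower to the left; the lists with at least 8 tested genes are drawn, and the dashed lines are the shares of all 17652 genes tested. Mitochondrially encoded genes (100% lower), snoRNA host genes (88.9% lower) and the egg coat genes (87.5% higher) reach furthest from the dashed lines.

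Around Echs1, 21 genes that make, use or degrade crotonyl-CoA or lie next to it in the same pathways were tested: 6 were higher, 4 were lower and 11 did not pass, with a median log2 fold change of 0.06, whose sign turned when values were rescaled without mitochondrial genes. Besides Echs1, the enoyl-CoA isomerase Eci1, which feeds unsaturated fatty acids into beta-oxidation, was at 74.9, 127 and 186 FPKM with siCon, against 12.8, 25.4 and 7 FPKM with siEchs1. Its level fell with the siRNA (log2 fold change -3.09 ± 0.74, adjusted p = 0.0047). In the opposite direction, Hadha, the alpha subunit of the trifunctional protein that can also hydrate enoyl-CoA, was at 5.98, 8.7 and 4.34 FPKM with siCon, against 32.7, 36.95 and 40.3 FPKM with siEchs1 (log2 fold change 2.4 ± 0.37, adjusted p = 0.00034). Hibadh, a dehydrogenase of valine breakdown, was at 18.6, 14.6 and 5.15 FPKM with siCon, against 51.4, 46.3 and 57.2 FPKM with siEchs1 (log2 fold change 2.09 ± 0.41, adjusted p = 0.00131). For these 3 genes the groups did not overlap. Hadhb, the beta subunit beside Hadha, was at 25.6, 34.8 and 39.9 FPKM with siCon, against 34.7, 35.3 and 28.03 FPKM with siEchs1 and did not pass the test (adjusted p = 0.978). Acss2, a short-chain acyl-CoA synthetase, was at 2.67, 2.19 and 8.48 FPKM with siCon, against 2.9, 0.78 and 1.05 FPKM with siEchs1 (adjusted p = 0.075, and 0.0330 without siEchs1 library 1), and Cdyl, a chromodomain protein with a hydratase fold that lowers histone crotonylation, at 19.4, 17.1 and 13.9 FPKM with siCon, against 25.1, 24.5 and 26.4 FPKM with siEchs1 (adjusted p = 0.124).

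The enzymes that write, erase or bind histone acyl marks moved in both directions: of 24 tested, 5 were higher and 9 lower, and the median was -0.39. Among the deacylases, Hdac1 was at 185, 179 and 249 FPKM with siCon, against 20.2, 29.6 and 12.02 FPKM with siEchs1. It fell in siEchs1 (log2 fold change -3.32 ± 0.41, adjusted p = 0.000105). Hdac3, a class I enzyme as well, was at 4.04, 3.33 and 2.75 FPKM with siCon, against 28.8, 16.6 and 16.8 FPKM with siEchs1 (log2 fold change 2.28 ± 0.34, adjusted p = 0.000243), so the members of this class stood on opposite sides. Sirt1 was at 18.8, 28.6 and 30.6 FPKM with siCon, against 7.14, 9.97 and 7.39 FPKM with siEchs1 (log2 fold change -1.54 ± 0.41, adjusted p = 0.00807). Ep300, which encodes p300, was at 14.6, 10.1 and 13.6 FPKM with siCon, against 1.72, 2.72 and 1.59 FPKM with siEchs1 (log2 fold change -2.2 ± 0.36, adjusted p = 0.000427). For Hdac1, Hdac3, Sirt1 and Ep300 no siEchs1 library overlapped the siCon libraries. Kat8, which acetylates lysine 16 of histone H4 and can crotonylate histones, was at 19.7, 30.9 and 37.3 FPKM with siCon, against 207, 145 and 143 FPKM with siEchs1 (log2 fold change 2.48 ± 0.77, adjusted p = 0.0186). Its call was lost without siCon library 1 or siEchs1 library 1 (adjusted p = 0.0639 and 0.0589). The readers of crotonylated lysine with a YEATS or double PHD finger domain gave 3 lower and 0 higher genes of 8. Yeats4, the most abundant of them that did not pass, was at 188, 199 and 128 FPKM with siCon, against 75.4, 82.7 and 113 FPKM with siEchs1. Its groups did not overlap, and it passed with the 6 L2C libraries fitted alone (adjusted p = 0.0184, against 0.0905). Mllt3 was at 111, 164 and 71.5 FPKM with siCon, against 64.8, 107 and 94.3 FPKM with siEchs1 (adjusted p = 0.63).

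Genes transcribed in a burst at the 2-cell stage were mostly low in siEchs1. Of 51 tested, 38 were lower (74.5%), 6 were higher (11.8%) and 7 did not pass, with a median log2 fold change of -2.47. All 6 Zscan4 genes, zinc finger proteins linked to telomere maintenance, were lower (log2 fold changes from -1.85 for Zscan4f to -3.72 for Zscan4c), and so were all 5 Tdpoz genes, which encode TRAF and BTB domain proteins (from -2.76 for Tdpoz2 to -4.26 for Tdpoz4). Zscan4c was at 60.4, 25.9 and 76.9 FPKM with siCon, against 13, 1.66 and 0.52 FPKM with siEchs1. Zscan4d was at 102, 67.2 and 67.03 FPKM with siCon, against 15.2, 14.6 and 10.1 FPKM with siEchs1. Trim43a and Trim43c, ubiquitin ligase genes of the cleavage stage, were at 229, 197 and 297 FPKM with siCon, against 9.58, 22.2 and 2.86 FPKM with siEchs1 and at 124, 89.96 and 158 FPKM with siCon, against 4.54, 6.64 and 1.93 FPKM with siEchs1, in this order. Pramel7, of the Prame-like family, was at 116, 52.3 and 191 FPKM with siCon, against 3.02, 10.4 and 0.36 FPKM with siEchs1 (log2 fold change -4.74 ± 0.66, adjusted p = 0.000188). For these 5 genes every siCon library was above every siEchs1 library. Members of the Zscan4, Tdpoz, Usp17l, Obox and Pramel families are related copies, more alike in some families than in others. How reads that match several copies were counted is not known, so their values may not be independent of each other. The upstream factors were less uniform: of 9, 4 were lower and 5 did not pass, among them Duxf3 (Dux, a homeobox activator of 2-cell genes) at 2.19, 3.42 and 0.52 FPKM with siCon, against 0.78, 0.19 and 1.92 FPKM with siEchs1 (adjusted p = 0.497) and Dppa2 at 104, 71.2 and 169 FPKM with siCon, against 95.4, 67.1 and 52.2 FPKM with siEchs1 (adjusted p = 0.183). Nr5a2, a nuclear receptor that binds AAGGTCA, was at 47.4, 59.8 and 85.9 FPKM with siCon, against 34.9, 42.2 and 28.8 FPKM with siEchs1, without overlap (log2 fold change -0.82 ± 0.31, adjusted p = 0.0428); this call was lost in 11 of 22 alternatives (adjusted p 0.0527 to 0.148 there).

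Upstream sequences of 3 of the lower genes are shown because the binding sequences of known 2-cell regulators can be read in them. They are the 250 bases before the annotated start, from RefSeq on GRCm38.p6 (mm10), 5′ to 3′ on the gene's strand. Capitals in Zfp352 mark the reverse complement of GGATTA, the sequence that OBOX proteins bind. Capitals in the Zscan4 genes mark the reverse complement of AAGGTCA and the TATA sequence TATAAA.
Zfp352, chr4:90218570-90218819, plus strand: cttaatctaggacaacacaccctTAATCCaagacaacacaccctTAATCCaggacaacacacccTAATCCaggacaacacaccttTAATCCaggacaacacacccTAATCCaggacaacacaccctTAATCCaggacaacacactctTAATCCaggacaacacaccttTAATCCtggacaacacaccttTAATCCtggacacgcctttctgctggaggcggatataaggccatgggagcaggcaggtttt
Zscan4c, chr7:11005495-11005744, plus strand: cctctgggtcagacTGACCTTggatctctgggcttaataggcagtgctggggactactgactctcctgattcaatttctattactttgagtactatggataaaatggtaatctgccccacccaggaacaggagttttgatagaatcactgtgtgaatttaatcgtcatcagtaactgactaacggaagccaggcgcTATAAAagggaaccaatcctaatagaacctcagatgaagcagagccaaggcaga
Zscan4d, chr7:11166149-11166398, minus strand: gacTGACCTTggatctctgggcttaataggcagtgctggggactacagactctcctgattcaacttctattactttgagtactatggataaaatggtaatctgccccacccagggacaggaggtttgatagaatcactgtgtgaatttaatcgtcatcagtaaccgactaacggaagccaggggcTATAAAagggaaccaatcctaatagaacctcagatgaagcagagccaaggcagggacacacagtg
The Zfp352 window holds 9 copies of GGATTA, all on the reverse strand, which was the highest number in any of the 11408 tested genes with an upstream sequence. Zfp352, a zinc finger gene first transcribed in the 2-cell embryo, was at 148, 209.8 and 204 FPKM with siCon, against 6.52, 15.9 and 10.6 FPKM with siEchs1 (log2 fold change -4.03 ± 0.52, adjusted p = 0.00013). The windows of Zscan4c and Zscan4d were identical in 233 of 261 alignment columns (89.3%), where a gap counts as a difference. The Zscan4d window begins and ends further along the shared sequence than the Zscan4c window. Part of the difference is thus this offset and not a change of bases. Over all 11408 windows, read on both strands, GGATTA occurred in 5.61%, in 5.80% of those of higher genes and in 7.24% of those of lower genes. AAGGTCA occurred in 3.01% of all windows, 2.51% of the higher and 3.31% of the lower. TATAAA occurred in 7.21%, 6.87% and 7.14%, and TAATTG, a homeodomain sequence, in 4.87%, 5.24% and 4.75%. A match describes the letters in this window and not a bound site.

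The Obox genes, homeobox genes of the egg and early embryo on chromosome 7, were divided by direction. Obox1 was at 105, 139.8 and 61.7 FPKM with siCon, against 588, 788 and 905 FPKM with siEchs1, Obox2 at 31.9, 35.2 and 30.01 FPKM with siCon, against 365, 728 and 668 FPKM with siEchs1 and Obox5 at 223, 183 and 143 FPKM with siCon, against 305, 432 and 555 FPKM with siEchs1. These 3 were higher in siEchs1 (log2 fold changes 2.94, 4.08 and 1.21). Obox3 was at 146, 134 and 189 FPKM with siCon, against 11.9, 21.4 and 4.38 FPKM with siEchs1, Obox6 at 422, 277 and 613 FPKM with siCon, against 9.54, 38.8 and 5.17 FPKM with siEchs1 and Obox8 at 132, 143 and 393 FPKM with siCon, against 6.8, 11.2 and 1.61 FPKM with siEchs1. These were lower (-3.75, -4.92 and -4.97), and for all 6 the groups did not overlap. Obox7, added after its values were seen to complete the family, was at 22.6, 26.4 and 8.28 FPKM with siCon, against 42.4, 77.1 and 102 FPKM with siEchs1 (log2 fold change 1.96 ± 0.51, adjusted p = 0.00761). At E2C in siCon, Obox1, Obox2 and Obox5 had means of 2454 ± 172, 721 ± 272 and 5425 ± 321 FPKM (SD, n = 3), and Obox3, Obox6 and Obox8 had 75.6 ± 16.5, 169 ± 38.8 and 39.3 ± 22.6 FPKM. Between E2C and L2C in siCon the first 3 were thus lower at the later stage and the last 3 higher.

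**Figure D2:**
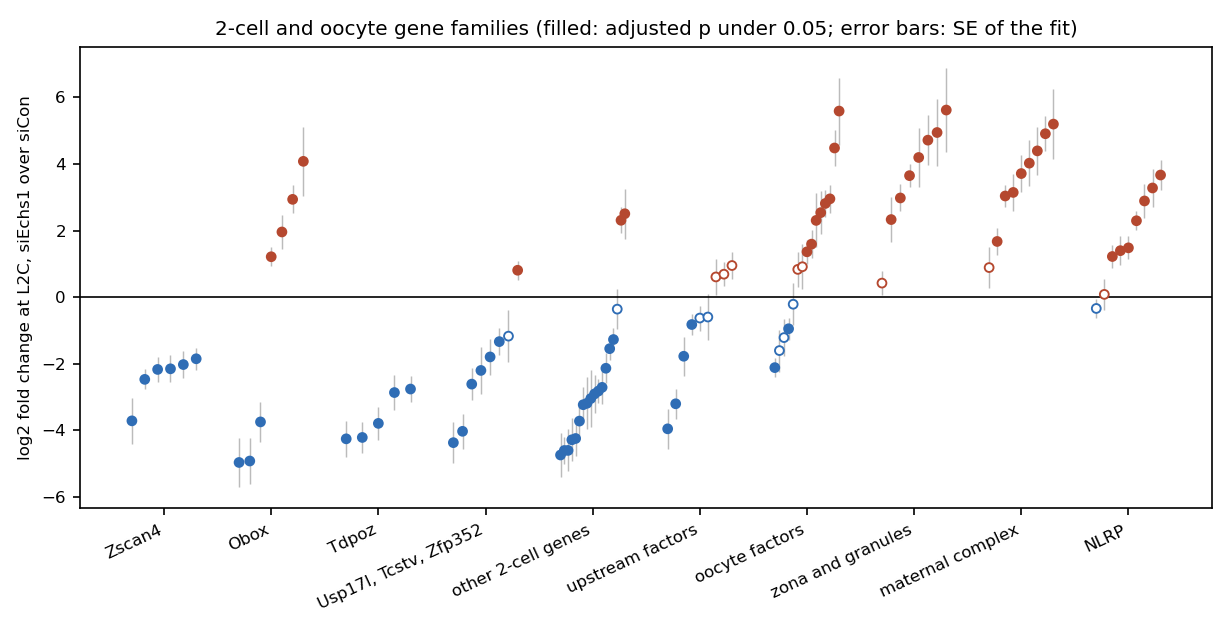
Log2 fold change (siEchs1 over siCon) of each tested gene of the 2-cell and oocyte families, ordered within a family, with the SE of the fit as error bars; filled points passed at an adjusted p under 0.05 and open points did not. The Obox column also holds Obox7 and Obox8, with 4 filled points above 0 and 3 below.

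Genes of the growing oocyte were mostly higher in siEchs1. The oocyte transcription factors gave 8 higher and 2 lower genes of 15 (53.3% and 13.3%), with a median of 1.36. Figla, the helix-loop-helix factor that switches on the egg coat genes, was at 1.67, 1.17 and 0.36 FPKM with siCon, against 158, 74.2 and 72.6 FPKM with siEchs1 (log2 fold change 5.59 ± 1.01, adjusted p = 0.000786). Nobox, a homeobox factor needed for follicle growth, was at 32.1, 27.03 and 14.2 FPKM with siCon, against 772, 449.5 and 447 FPKM with siEchs1 (log2 fold change 4.48 ± 0.53, adjusted p = 9.03e-05). Zfp57, which protects imprinted methylation, was at 209.6, 164 and 235 FPKM with siCon, against 1497, 1523 and 1663 FPKM with siEchs1 (log2 fold change 2.95 ± 0.42, adjusted p = 0.000199). Lhx8 was at 43.03, 48.9 and 18.6 FPKM with siCon, against 314, 219.7 and 214 FPKM with siEchs1 (log2 fold change 2.81 ± 0.41, adjusted p = 0.000221). None of these 4 overlapped between groups. Pou5f1, the pluripotency factor Oct4, was at 449, 405 and 222 FPKM with siCon, against 364, 248 and 287 FPKM with siEchs1 and did not pass (adjusted p = 0.801).

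Of the egg coat and cortical granule genes, 7 of 8 were higher and 0 lower (median log2 fold change 3.92). The zona pellucida genes Zp1, Zp2 and Zp3 had means of 1171 ± 343, 1449.8 ± 288 and 3409.7 ± 909 FPKM in siEchs1 and of 61.4 ± 6.82, 45.95 ± 8.31 and 69.7 ± 24.5 FPKM in siCon (SD, n = 3). Astl, the protease ovastacin that cuts ZP2 after fertilization, was at 19.2, 15.9 and 9.33 FPKM with siCon, against 579, 395 and 278 FPKM with siEchs1 (log2 fold change 4.72 ± 0.75, adjusted p = 0.000371). For Zp1, Zp2, Zp3 and Astl the siEchs1 libraries were all above the siCon libraries. Zp3r, a gene of the sperm acrosome that shares only the name, was at 1.62, 1.29 and 1.16 FPKM with siCon, against 1.58, 2.4 and 2.55 FPKM with siEchs1 and did not pass. The upstream window of Zp3 is shown because FIGLA binds E-boxes of the form CANNTG, which are in capitals; this motif was added after the values were seen.
Zp3, chr5:135979855-135980104, plus strand: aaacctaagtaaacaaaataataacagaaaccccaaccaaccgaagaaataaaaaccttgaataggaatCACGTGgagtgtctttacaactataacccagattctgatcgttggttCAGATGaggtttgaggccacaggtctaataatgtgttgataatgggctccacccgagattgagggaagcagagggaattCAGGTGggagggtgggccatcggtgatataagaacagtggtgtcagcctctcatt
It holds 3 such boxes, and 3 or more were found in 8.46% of the windows. Some CANNTG was present in 59.0% of all windows, 62.3% of those of higher genes and 56.5% of those of lower genes.

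The subcortical maternal complex, a protein scaffold of the egg and cleavage embryo, and the NLRP genes related to it were higher in 15 of 18 cases and lower in 0, with a median of 2.96. Khdc3 was at 50.1, 28.3 and 39.1 FPKM with siCon, against 1574, 1263 and 1491 FPKM with siEchs1 (log2 fold change 5.2 ± 1.04, adjusted p = 0.00153). Ooep was at 30.5, 30.3 and 45.3 FPKM with siCon, against 940.4, 1148 and 1141 FPKM with siEchs1 (log2 fold change 4.91 ± 0.53, adjusted p = 6.02e-05). Padi6, the peptidylarginine deiminase of the egg's cytoplasmic lattices, was at 107, 87.4 and 92.9 FPKM with siCon, against 2642, 1914 and 1645 FPKM with siEchs1 (log2 fold change 4.39 ± 0.71, adjusted p = 0.000427). Tle6 was at 122, 182 and 118 FPKM with siCon, against 3486, 1846 and 1792 FPKM with siEchs1 (log2 fold change 4.02 ± 0.69, adjusted p = 0.000574). These 4 genes encode core members of one complex, and every siEchs1 value of each was above every siCon value. Zbed3, also a member, was at 7267, 4564 and 1600 FPKM with siCon, against 7283, 5863 and 7883 FPKM with siEchs1. Its groups overlapped, and it did not pass (log2 fold change 0.89 ± 0.63, adjusted p = 0.259).

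Secreted factors and regulators of meiosis gave 8 higher and 2 lower genes of 24, a median of 0.36. Mos, the kinase that holds the egg at metaphase II, was at 4.03, 6.25 and 6.26 FPKM with siCon, against 683, 589 and 673 FPKM with siEchs1 (log2 fold change 6.66 ± 1.24, adjusted p = 0.000942), and Gdf9, a growth factor that the oocyte sends to its cumulus cells, at 236, 211 and 188 FPKM with siCon, against 5704, 3861 and 3702 FPKM with siEchs1 (log2 fold change 4.35 ± 0.67, adjusted p = 0.000317). Fgf8 was at 13.5, 19.4 and 11.6 FPKM with siCon, against 243, 159 and 216 FPKM with siEchs1, and the cyclin Ccnb2 at 33.4, 25.3 and 28.01 FPKM with siCon, against 133, 123 and 99.1 FPKM with siEchs1. All 4 were higher. Btg4, an adaptor of maternal RNA decay, was at 1193, 876 and 379.8 FPKM with siCon, against 1190.4, 1279.9 and 1708 FPKM with siEchs1 and did not pass (adjusted p = 0.0665, and 0.0221 without siCon library 1).

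RNA storage and RNA decay factors of the oocyte were counted apart, and the difference between them was not tested. Of the storage genes 9 were higher and 3 lower of 18 (median 1.35), and of the decay genes 2 were higher and 7 lower of 26 (median -0.45). Zar1, which organizes stored RNA in the oocyte, was at 24.9, 25.98 and 27.1 FPKM with siCon, against 2195, 1334 and 1684 FPKM with siEchs1 (log2 fold change 5.98 ± 0.56, adjusted p = 4.90e-05). Pabpn1l, a poly(A) binding protein of the egg, was at 9.76, 7.72 and 8.42 FPKM with siCon, against 801, 515 and 738 FPKM with siEchs1 (log2 fold change 6.13 ± 1.21, adjusted p = 0.00137). Patl2 and Pabpc1l, both of the oocyte's RNA particles, were at 1.69, 1.28 and 0.87 FPKM with siCon, against 107, 91.9 and 60.2 FPKM with siEchs1 and at 11.3, 15.1 and 9.58 FPKM with siCon, against 219, 202 and 217 FPKM with siEchs1, in this order. None of the 4 overlapped between groups.

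The remaining oocyte transcripts were mostly higher too, 31 of 50 against 10 lower, with a median of 2.01. Gja4, the connexin of the oocyte's gap junctions, was at 11.1, 17.04 and 11.1 FPKM with siCon, against 1156, 833 and 891 FPKM with siEchs1. Plat, tissue plasminogen activator, was at 15.6, 8.93 and 10.8 FPKM with siCon, against 895, 585 and 784 FPKM with siEchs1. Fbxw21, of the multi-copy Fbxw family, was at 13.3, 23.9 and 21.4 FPKM with siCon, against 692, 683 and 665 FPKM with siEchs1, and Oas1e, of the Oas1 family, at 43.2, 44.3 and 35 FPKM with siCon, against 1792, 1253 and 1244 FPKM with siEchs1. All 4 were higher in each siEchs1 library than in any siCon library (log2 fold changes 6.11, 5.9, 5.09 and 5.08). Not every abundant oocyte RNA did so: Dppa3, which guards maternal methylation, was at 1972, 1925 and 3027 FPKM with siCon, against 2015, 2663 and 2768 FPKM with siEchs1 and did not pass (adjusted p = 0.734). The 10 lower genes belong to 2 families, with 2 other genes: Omt2a and Omt2b, Tcl1 and Tcl1b1 to Tcl1b5, Rfpl4b, and Gja1, which is a cumulus marker as well. Omt2b was at 9003, 9623 and 9048 FPKM with siCon, against 1848, 2022 and 2231 FPKM with siEchs1 (log2 fold change -2.18 ± 0.32, adjusted p = 0.000229). Tcl1b2 lost its call in 14 of 22 alternatives (adjusted p 0.0523 to 0.138 there), and Tcl1 lost it with quantile normalization (adjusted p = 0.465).

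**Figure D3:**
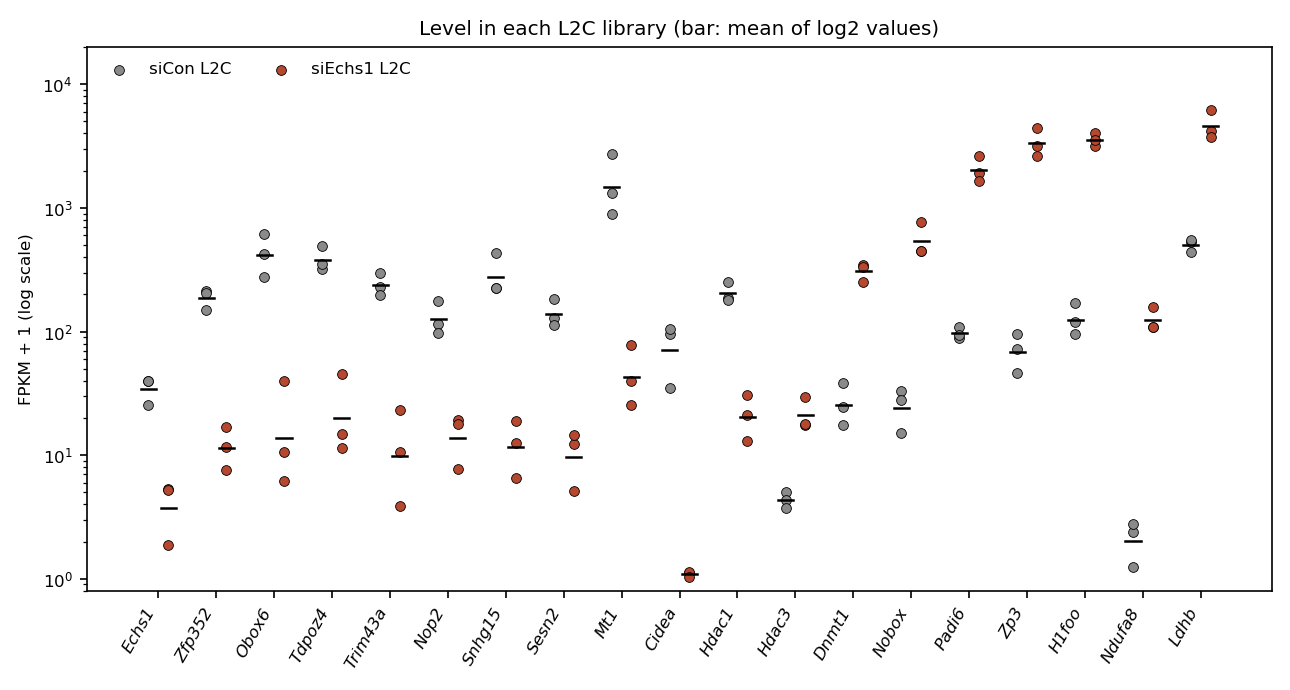
FPKM + 1 (log axis) of 19 genes in each L2C library, grey for siCon and red for siEchs1, with a bar at the mean of the log2 values of a group. From Echs1 to Hdac1 the siEchs1 points lie below the siCon points, and from Hdac3 to Ldhb they lie above, with no overlap for any gene drawn.

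Respiration split by genome. The 15 genes of mitochondrial DNA, 13 for subunits of the respiratory chain and 2 for ribosomal RNA, were all lower (100%), with a median log2 fold change of -2.98. mt-Atp6, of ATP synthase, was at 18064, 21127 and 21585 FPKM with siCon, against 1364, 2754 and 1669 FPKM with siEchs1 (log2 fold change -3.45 ± 0.41, adjusted p = 9.32e-05). mt-Cytb, of complex III, was at 4903, 8312 and 7453 FPKM with siCon, against 430.4, 1004 and 552 FPKM with siEchs1 (log2 fold change -3.44 ± 0.47, adjusted p = 0.00016), and mt-Nd1, of complex I, at 3045, 4553 and 4269 FPKM with siCon, against 239, 547 and 343 FPKM with siEchs1 (log2 fold change -3.45 ± 0.62, adjusted p = 0.000782). For these 3 genes the groups did not overlap. mt-Rnr1 and mt-Rnr2, the ribosomal RNAs, had the smallest changes (-1.87 and -2.15). Each lost its call in 5 of 22 alternatives, with adjusted p up to 0.116 for mt-Rnr1 and 0.115 for mt-Rnr2, both without siEchs1 library 1.

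The nuclear genes for the same complexes were mostly higher or not called: of 75 tested, 40 were higher (53.3%) and 2 lower (2.67%), with a median of 1.69. By complex, 21 of 37 genes of complex I were higher, 8 of 14 of complexes II and III, 4 of 10 of complex IV and 7 of 14 of complex V. Ndufa8 was at 1.39, 1.8 and 0.24 FPKM with siCon, against 157, 108 and 109 FPKM with siEchs1 (log2 fold change 5.93 ± 0.61, adjusted p = 5.66e-05). Ndufc2 was at 5.76, 10.8 and 1.06 FPKM with siCon, against 117, 163 and 224 FPKM with siEchs1 and Ndufa5 at 6.39, 6.92 and 4.33 FPKM with siCon, against 139, 156 and 121 FPKM with siEchs1 (log2 fold changes 4.9 and 4.36). These 3 are accessory subunits of complex I. Atp5e, the epsilon subunit of ATP synthase, was at 10.6, 39.7 and 45.9 FPKM with siCon, against 545, 662 and 768 FPKM with siEchs1 (log2 fold change 4.54 ± 1.03, adjusted p = 0.00322). The only lower members, Cox8a and Atp5g1, singled out after their values were seen, were at 1914, 2882 and 2184 FPKM with siCon, against 665, 676 and 659 FPKM with siEchs1 and at 806, 685 and 1154 FPKM with siCon, against 446, 288 and 239 FPKM with siEchs1, in this order; the call of Atp5g1 was lost in 5 alternatives (adjusted p up to 0.113, without siCon library 3). The share of mitochondrial transcripts moves with these groups, and FPKM is relative to each library's total. With values rescaled to the total without mitochondrial genes the counts were 39 higher and 2 lower.

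Factors that copy and express mitochondrial DNA were higher in 7 (23.3%) and lower in 4 (13.3%) of 30 cases, beside 21.9% and 26.9% of all genes tested. Without siEchs1 E2C library 3, 11 were higher. Mterf4, needed for mitochondrial ribosomes, was at 7.05, 4.41 and 3.84 FPKM with siCon, against 138, 126 and 101 FPKM with siEchs1 (log2 fold change 4.35 ± 0.77, adjusted p = 0.00069). Tfb1m, a methyltransferase of mitochondrial ribosomal RNA, was at 2.81, 3.78 and 3.71 FPKM with siCon, against 22.7, 42.9 and 29.8 FPKM with siEchs1 (log2 fold change 2.85 ± 0.41, adjusted p = 0.000207). Gabpa, a nuclear transcription factor of respiratory genes, was at 97.1, 67.6 and 246 FPKM with siCon, against 9.27, 11.6 and 2.09 FPKM with siEchs1 (log2 fold change -4.01 ± 0.60, adjusted p = 0.000254). Mterf4 and Tfb1m were higher in all siEchs1 libraries and Gabpa was lower in all. Nrf1, another such factor, was at 64.6, 48.8 and 85.97 FPKM with siCon, against 126, 89.8 and 83.2 FPKM with siEchs1 and did not pass.

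**Figure D4:**
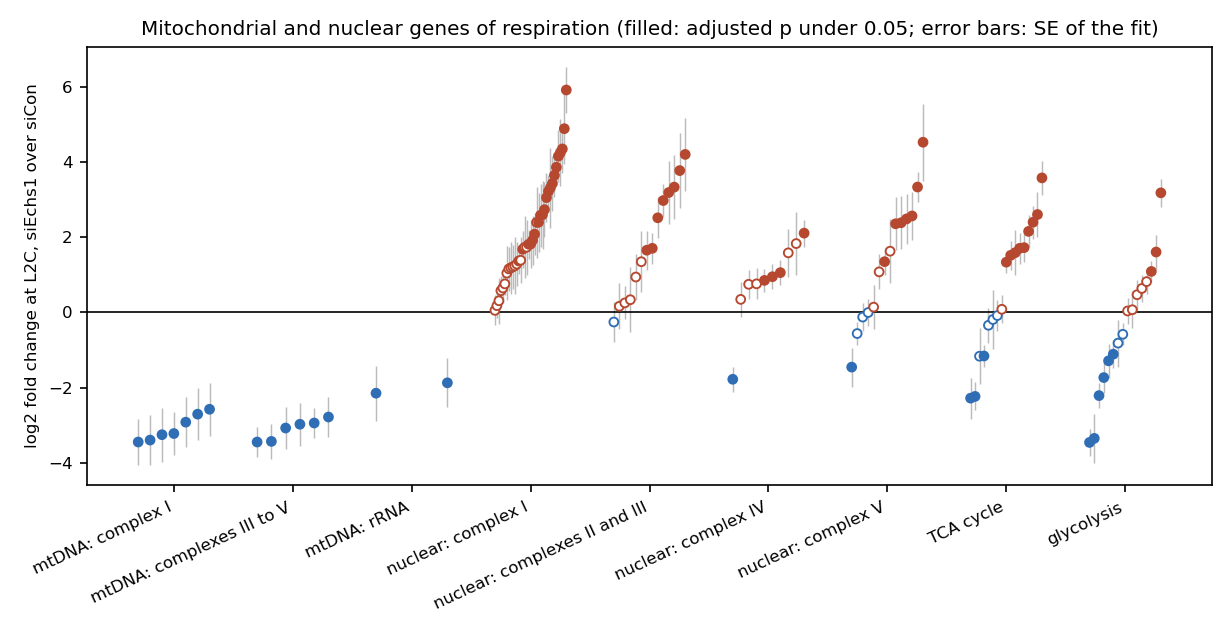
Log2 fold change (siEchs1 over siCon) of each tested gene of the respiratory chain, TCA cycle and glycolysis, with the SE of the fit as error bars; filled points passed at an adjusted p under 0.05. All 15 genes of mitochondrial DNA lie below 0, and 40 filled points in the 4 columns of nuclear respiratory complexes lie above it.

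In fuel metabolism, fatty acid and branched-chain amino acid oxidation gave 14 higher and 9 lower genes of 40. In the branched-chain amino acid branch the counts were 9 higher and 3 lower of 20, and in the fatty acid branch, Echs1 included, 5 and 6 of 20. Dld, the lipoamide dehydrogenase shared by the ketoacid dehydrogenase complexes, was at 9.17, 5.09 and 6.44 FPKM with siCon, against 55.1, 78.2 and 74.5 FPKM with siEchs1 (log2 fold change 3.17 ± 0.41, adjusted p = 0.000135). Mcee, an epimerase of propionate breakdown, was at 7.21, 10.9 and 16.04 FPKM with siCon, against 94.9, 103 and 80.8 FPKM with siEchs1 (log2 fold change 2.98 ± 0.72, adjusted p = 0.00484). TCA cycle genes were higher in 9 and lower in 3 of 17 cases, for example fumarase (Fh1) at 5.58, 7.24 and 6.55 FPKM with siCon, against 94.7, 83.8 and 86.5 FPKM with siEchs1 (log2 fold change 3.59 ± 0.45, adjusted p = 0.000109). Glycolysis genes were higher in 3 and lower in 6 of 16. The lactate dehydrogenase subunits took opposite directions: Ldhb, the main form in the egg, was at 526, 547 and 440.4 FPKM with siCon, against 6201, 4169 and 3736 FPKM with siEchs1 (log2 fold change 3.19 ± 0.38, adjusted p = 9.03e-05), and Ldha was at 75.6, 93.3 and 43.7 FPKM with siCon, against 10.6, 8.41 and 1.75 FPKM with siEchs1 (log2 fold change -3.36 ± 0.65, adjusted p = 0.00125). The glucose transporter Slc2a3 was at 32.7, 22.7 and 17.2 FPKM with siCon, against 1.53, 0.9 and 1.25 FPKM with siEchs1 (log2 fold change -3.46 ± 0.37, adjusted p = 5.93e-05). For Dld, Mcee, Fh1, Ldhb, Ldha and Slc2a3 the groups did not overlap. Pkm, the last enzyme of glycolysis to yield ATP, was at 255, 299 and 218 FPKM with siCon, against 350.4, 217 and 238 FPKM with siEchs1 and did not pass (adjusted p = 0.936).

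Lipid synthesis genes were lower in 13 and higher in 6 of 30 cases. Scd1, the desaturase that makes oleate, was at 99.2, 88.7 and 106 FPKM with siCon, against 9.54, 10.3 and 1.14 FPKM with siEchs1 (log2 fold change -3.96 ± 0.72, adjusted p = 0.000794), and the elongase Elovl6 at 20.7, 37.3 and 81.2 FPKM with siCon, against 1.93, 3.96 and 0.32 FPKM with siEchs1 (log2 fold change -3.93 ± 0.81, adjusted p = 0.00188). Srebf1, a transcription factor that drives both in liver, was higher, at 4.78, 5.53 and 4.46 FPKM with siCon, against 89.3, 60.4 and 60.7 FPKM with siEchs1 (log2 fold change 3.57 ± 0.44, adjusted p = 0.000106), as was the elongase Elovl5 at 6.46, 3.07 and 3.11 FPKM with siCon, against 35.8, 45.6 and 44.4 FPKM with siEchs1. Lipid droplet genes were higher in 4 (23.5%) and lower in 5 (29.4%) of 17 cases, near the 21.9% and 26.9% of all genes tested. Cidea, a droplet protein of brown fat, was at 33.7, 95.3 and 105 FPKM with siCon, against 0.11, 0.14 and 0.04 FPKM with siEchs1. It had the largest decrease of the genes named here (log2 fold change -6.01 ± 0.41, adjusted p = 4.16e-05). Plin1, which coats droplets, was at 6.53, 8.05 and 7.77 FPKM with siCon, against 0.3, 0.24 and 0.06 FPKM with siEchs1 (log2 fold change -2.82 ± 0.39, adjusted p = 0.000172). Pnpla2, the lipase that opens them, was at 4.55, 4.98 and 0.97 FPKM with siCon, against 27.4, 16.7 and 15.98 FPKM with siEchs1 (log2 fold change 2.34 ± 0.53, adjusted p = 0.0033). Of 21 amino acid transporters 4 were higher and 7 lower. Leaving out single libraries gave 2 to 7 higher and 4 to 7 lower. Slc1a5, a glutamine transporter, was at 79.8, 67.6 and 109.8 FPKM with siCon, against 2.3, 5.15 and 1.14 FPKM with siEchs1 (log2 fold change -4.6 ± 0.45, adjusted p = 5.18e-05). The glutamate transporter Slc1a1 was at 45.9, 58.9 and 66.2 FPKM with siCon, against 3.65, 5.33 and 0.87 FPKM with siEchs1 (log2 fold change -3.92 ± 0.66, adjusted p = 0.00051). Slc38a9, the lysosomal arginine sensor of mTORC1, was higher, at 2.76, 2 and 2.35 FPKM with siCon, against 32.8, 32.7 and 35.6 FPKM with siEchs1 (log2 fold change 3.37 ± 0.58, adjusted p = 0.000574).

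Of 65 ribosome biogenesis genes 28 were lower (43.1%), 2 higher (3.08%) and 35 did not pass, with a median of -0.79. Of 77 ribosomal protein genes 6 were lower, 4 higher and 67 did not pass, with a median of -0.04. Without siEchs1 E2C library 3, 13 ribosomal protein genes were lower and 12 higher, and leaving out other single libraries gave as few as 3 lower and 0 higher. Nop2, a methyltransferase of the large subunit's RNA, was at 114, 97.1 and 175 FPKM with siCon, against 18.1, 16.9 and 6.77 FPKM with siEchs1 (log2 fold change -3.18 ± 0.43, adjusted p = 0.000151). Nop16 was at 131, 105 and 210.1 FPKM with siCon, against 10.1, 12 and 3.9 FPKM with siEchs1 (log2 fold change -4.01 ± 0.46, adjusted p = 7.88e-05). Tsr1, of the small subunit, was at 41.5, 52.5 and 51.4 FPKM with siCon, against 5.75, 6.1 and 3.7 FPKM with siEchs1 (log2 fold change -3.02 ± 0.36, adjusted p = 9.57e-05). Polr1b, the second largest subunit of RNA polymerase I, was at 22.4, 30.2 and 40.9 FPKM with siCon, against 2.88, 4.1 and 2.34 FPKM with siEchs1 (log2 fold change -2.95 ± 0.33, adjusted p = 7.46e-05). All siEchs1 libraries were below all siCon libraries for these 4. Npm1, the most abundant member that did not pass, was at 800.4, 1066 and 1481 FPKM with siCon, against 555, 739 and 699 FPKM with siEchs1 (adjusted p = 0.0893, and 0.0356 without siEchs1 E2C library 3). Rpl41 was the most abundant uncalled ribosomal protein gene, at 1522, 1887 and 3187 FPKM with siCon, against 1589.8, 1700.4 and 1459 FPKM with siEchs1, where the groups overlapped.

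Host genes of small nucleolar RNAs were low in siEchs1: 16 of 18 were lower (88.9%) and 0 higher, with a median of -2.57. Snhg15 was at 222, 224 and 428 FPKM with siCon, against 11.5, 17.97 and 5.54 FPKM with siEchs1 (log2 fold change -4.59 ± 0.45, adjusted p = 4.98e-05). Dancr was at 61.1, 48.6 and 147 FPKM with siCon, against 1.88, 1.63 and 4.97 FPKM with siEchs1 (log2 fold change -4.43 ± 0.55, adjusted p = 0.000111), and Snhg16 at 53.6, 52.5 and 34.1 FPKM with siCon, against 2.4, 2.61 and 0.68 FPKM with siEchs1 (log2 fold change -4.09 ± 0.40, adjusted p = 5.18e-05). Their spliced RNAs are long noncoding RNAs with snoRNAs in their introns. Of 99 annotated snoRNA genes tested, 25 were lower (25.3%) and 1 was higher (1.01%), beside 26.9% and 21.9% of all genes tested. The share of lower snoRNA genes was thus near that of all genes. Snord55 was at 77.8, 151 and 106 FPKM with siCon, against 0, 10.7 and 0 FPKM with siEchs1 (log2 fold change -5.58 ± 0.73, adjusted p = 0.000137). These libraries copied poly(A) RNA, so such values cannot be told apart from RNA of the host gene.

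Translation factors and tRNA synthetases moved in both directions. Synthetases were higher in 9 and lower in 2 of 20 cases, and initiation factors in 5 and 8 of 29. Eif1ax was at 14.8, 34.7 and 20.2 FPKM with siCon, against 128, 193 and 213 FPKM with siEchs1 (log2 fold change 2.94 ± 0.52, adjusted p = 0.000683). Eif1b was at 83.8, 131 and 91.5 FPKM with siCon, against 499, 659.9 and 670.3 FPKM with siEchs1 (log2 fold change 2.58 ± 0.27, adjusted p = 5.93e-05). Eif3d was at 9.96, 8.47 and 10.8 FPKM with siCon, against 66.6, 63.8 and 56.3 FPKM with siEchs1 (log2 fold change 2.56 ± 0.45, adjusted p = 0.000639). All 3 act in the scanning ribosome's complex and were higher. Eif2s3y, the Y-linked copy of an eIF2 subunit, was at 14.2, 4.84 and 5.74 FPKM with siCon, against 0, 1.35 and 0.39 FPKM with siEchs1 (log2 fold change -2.5 ± 0.72, adjusted p = 0.0124), and did not pass without siCon library 1 (adjusted p = 0.0544).

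Among stress programs, p53 targets were lower in 16 of 21 (76.2%) against 0 higher, with a median of -1.72. Sesn2, a sestrin that restrains mTORC1, was at 128, 113 and 181 FPKM with siCon, against 11.3, 13.4 and 4.11 FPKM with siEchs1 (log2 fold change -3.84 ± 0.50, adjusted p = 0.000132). Gadd45a, a growth arrest gene, was at 164, 162 and 230.4 FPKM with siCon, against 18.6, 12.1 and 8.59 FPKM with siEchs1 (log2 fold change -3.77 ± 0.34, adjusted p = 4.90e-05). Bbc3, which encodes the BH3 protein PUMA, was at 30.5, 7.78 and 11.03 FPKM with siCon, against 1.16, 0.15 and 1.44 FPKM with siEchs1 (log2 fold change -3.03 ± 0.47, adjusted p = 0.000339), and Gadd45g at 39.4, 39.9 and 5.08 FPKM with siCon, against 2.59, 0.41 and 4.54 FPKM with siEchs1. The p53 ligase Mdm2 was at 125, 86.5 and 80.8 FPKM with siCon, against 52.9, 57.1 and 61.2 FPKM with siEchs1, without overlap but also without passing (log2 fold change -0.74 ± 0.34, adjusted p = 0.0875). It passed with the 6 L2C libraries fitted alone (adjusted p = 0.0389). Apoptosis regulators gave 11 lower and 4 higher of 24, among them Mcl1 at 46.2, 48.5 and 64.2 FPKM with siCon, against 14.1, 6.01 and 2.73 FPKM with siEchs1. ATF4 targets gave 5 lower and 3 higher of 25, and 0 higher without siCon library 3. Psat1, of serine synthesis, was at 87.9, 89.2 and 147 FPKM with siCon, against 8.77, 9.72 and 3.31 FPKM with siEchs1 (log2 fold change -3.79 ± 0.48, adjusted p = 0.000117), and Trib3 at 53.4, 56.8 and 82.1 FPKM with siCon, against 8.06, 10.6 and 1.57 FPKM with siEchs1 (log2 fold change -3.31 ± 0.49, adjusted p = 0.000243), while the enzyme Mthfd2 was at 249, 251 and 119 FPKM with siCon, against 161, 169 and 187 FPKM with siEchs1 and did not pass.

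Interferon response genes were lower in 9 and higher in 2 of 17 tested of 30 listed, with a median of -1.71. The higher ones numbered 0 to 4 when single libraries were left out. Ifi35 was at 40.8, 38.3 and 73.6 FPKM with siCon, against 1.86, 2.71 and 0.27 FPKM with siEchs1 (log2 fold change -4.38 ± 0.45, adjusted p = 5.54e-05) and Isg15, a ubiquitin-like modifier, at 26.04, 23.3 and 6.45 FPKM with siCon, against 0.68, 0.79 and 0.42 FPKM with siEchs1 (log2 fold change -3.39 ± 0.57, adjusted p = 0.000546). Antioxidant genes were lower in 13 and higher in 7 of 31 (4 higher without siEchs1 library 1). The metallothioneins, which bind zinc and copper, led the decreases: Mt1 was at 892, 1327 and 2715 FPKM with siCon, against 38.7, 77.5 and 24.4 FPKM with siEchs1 (log2 fold change -5.1 ± 0.81, adjusted p = 0.000373) and Mt2 at 308, 478 and 834 FPKM with siCon, against 17.6, 31.9 and 12.7 FPKM with siEchs1 (log2 fold change -4.62 ± 0.55, adjusted p = 9.48e-05). Prdx4, the peroxiredoxin of the endoplasmic reticulum, was at 88.95, 133 and 209 FPKM with siCon, against 24.9, 23.9 and 10.2 FPKM with siEchs1 (log2 fold change -2.82 ± 0.52, adjusted p = 0.000917). No siEchs1 library reached a siCon library for these 5 genes. Gpx4, which protects membranes from lipid peroxides, was at 105, 203 and 205 FPKM with siCon, against 185, 162 and 140.0 FPKM with siEchs1 and did not pass (adjusted p = 0.985).

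Proteasome genes were higher in 12 and lower in 3 of 36 cases, with a median of 1.01, and 2 of the 4 activator genes were among the lower ones. Without siEchs1 E2C library 3, 22 were higher. Psma7, of the core particle, was at 52.1, 202 and 60.2 FPKM with siCon, against 604, 638 and 643 FPKM with siEchs1 (log2 fold change 2.85 ± 0.76, adjusted p = 0.00827). Psme1, of the interferon-inducible activator, was at 14.6, 35.4 and 22.9 FPKM with siCon, against 1.68, 0.99 and 0.62 FPKM with siEchs1 (log2 fold change -3.54 ± 0.57, adjusted p = 0.000407). Heat shock and chaperonin genes gave 7 higher and 5 lower of 25, and 13 higher without the same E2C library. Hsp90aa1 was at 267, 380.1 and 282 FPKM with siCon, against 1668, 2004 and 1779 FPKM with siEchs1 and Cct5 at 59.9, 53.2 and 38.8 FPKM with siCon, against 280.4, 334 and 353 FPKM with siEchs1 (2.56 and 2.66), whereas Hspb1 was at 244, 337 and 226 FPKM with siCon, against 46.1, 34.02 and 27.6 FPKM with siEchs1 and Bag3 at 48.9, 34.9 and 52.9 FPKM with siCon, against 4.23, 2 and 1.69 FPKM with siEchs1 (-2.88 and -3.72). All 6 passed with separate groups. Hspa8, the most abundant uncalled member, was at 226, 299 and 341 FPKM with siCon, against 835, 777 and 865 FPKM with siEchs1 (adjusted p = 0.125, and 0.000476 with the 6 L2C libraries fitted alone).

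In autophagy and the lysosome, 18 genes were higher and 17 lower of 52, with 11 higher when siCon library 3 was left out. Grn, a lysosomal glycoprotein gene, was at 4.31, 7.61 and 2.93 FPKM with siCon, against 84.2, 56.2 and 43.7 FPKM with siEchs1 (log2 fold change 3.41 ± 0.58, adjusted p = 0.000565). Cathepsin A (Ctsa) was at 118, 178 and 193 FPKM with siCon, against 13.3, 17.03 and 3.94 FPKM with siEchs1 (log2 fold change -3.89 ± 0.49, adjusted p = 0.000117) and cathepsin L (Ctsl) at 233, 308 and 319 FPKM with siCon, against 25.1, 34.2 and 14.3 FPKM with siEchs1 (log2 fold change -3.56 ± 0.58, adjusted p = 0.000421). The groups did not overlap for these genes.

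Transcription and RNA processing genes moved in both directions. RNA polymerase II, TFIID and Mediator gave 19 lower (28.8%) and 10 higher (15.2%) of 66, and splicing factors 12 (26.1%) and 9 (19.6%) of 46, beside 26.9% and 21.9% of all genes tested. The counts of the first list were 23 lower and 18 higher without siEchs1 E2C library 3, and 11 were lower without siCon library 3. Cdk9, the kinase that releases paused polymerase, was at 194, 246 and 310 FPKM with siCon, against 58.8, 31.4 and 19.5 FPKM with siEchs1 (log2 fold change -2.85 ± 0.43, adjusted p = 0.000261). Med17 and Med8, of the Mediator head, were at 14.1, 18.99 and 28.7 FPKM with siCon, against 220.4, 249 and 254 FPKM with siEchs1 and at 19.9, 2.6 and 10.6 FPKM with siCon, against 91.4, 79.03 and 66.2 FPKM with siEchs1 (3.54 and 3.05). SR proteins, which define exons, were lower in 7 of 12 cases and higher in 0. Srsf1 was at 199.8, 155 and 382 FPKM with siCon, against 31.6, 54.1 and 35.98 FPKM with siEchs1 (log2 fold change -2.5 ± 0.48, adjusted p = 0.00113) and Srsf7 at 155, 199 and 221 FPKM with siCon, against 38.2, 43.8 and 31.9 FPKM with siEchs1 (log2 fold change -2.3 ± 0.51, adjusted p = 0.00292). In the spliceosome the counts were 9 higher and 5 lower of 34, for example Sf3a2 at 16.8, 9.88 and 11.3 FPKM with siCon, against 67.1, 51.6 and 55.9 FPKM with siEchs1 (log2 fold change 2.14 ± 0.36, adjusted p = 0.000557). These 6 genes had no overlap between groups.

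Chromatin writers, erasers and remodelers were lower in 32 (41.03%) and higher in 9 (11.5%) of 78 cases, with a median of -0.60. Kdm5b, a demethylase of histone H3 lysine 4, was at 41.6, 31.6 and 62.8 FPKM with siCon, against 2.14, 5.24 and 1.17 FPKM with siEchs1 (log2 fold change -3.67 ± 0.46, adjusted p = 0.000113). Kdm4c, a demethylase of lysine 9, was at 19.7, 20.4 and 26.6 FPKM with siCon, against 2.79, 2.27 and 0.43 FPKM with siEchs1 (log2 fold change -3.14 ± 0.43, adjusted p = 0.000167). Srcap, the remodeler that deposits H2A.Z, was at 76.99, 60.3 and 112 FPKM with siCon, against 8.9, 10.9 and 4.65 FPKM with siEchs1 (log2 fold change -3.22 ± 0.57, adjusted p = 0.000737). Against this direction, the maintenance DNA methyltransferase Dnmt1 was at 16.6, 23.7 and 37.1 FPKM with siCon, against 346, 331 and 251 FPKM with siEchs1 (log2 fold change 3.59 ± 0.70, adjusted p = 0.00127). The enzymes for H3K36, H3K79 and H4 methylation had 8 lower and 0 higher of 11. Histone genes were higher in 11 and lower in 8 of 31, led by the oocyte linker histone H1foo at 168, 93.8 and 118 FPKM with siCon, against 3998, 3138 and 3561 FPKM with siEchs1 (log2 fold change 4.84 ± 0.67, adjusted p = 0.000185). Npm2, the histone chaperone of the egg, was at 162, 178 and 121 FPKM with siCon, against 1429.8, 1089 and 958 FPKM with siEchs1 (log2 fold change 2.91 ± 0.33, adjusted p = 7.24e-05), and the variant gene H2afy, for macroH2A, at 2.17, 1.51 and 0.92 FPKM with siCon, against 17.8, 16.4 and 14.1 FPKM with siEchs1 (log2 fold change 2.78 ± 0.32, adjusted p = 8.48e-05). H3f3b, for histone H3.3, was at 1005, 772 and 933 FPKM with siCon, against 501, 820.5 and 855 FPKM with siEchs1 and did not pass.

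Nuclear transport receptors were lower in 12 of 23 cases and higher in 1, and pore proteins lower in 7 and higher in 8 of 26. The only higher receptor was Kpna7, the importin alpha of the oocyte, at 38.6, 48.4 and 23.2 FPKM with siCon, against 348, 272 and 275 FPKM with siEchs1 (log2 fold change 3.04 ± 0.32, adjusted p = 5.66e-05). Kpna1, an importin alpha of later stages, was at 40.4, 33.9 and 64.7 FPKM with siCon, against 1.88, 5.7 and 0.68 FPKM with siEchs1 (log2 fold change -3.84 ± 0.51, adjusted p = 0.000153), and the exporter Xpo1 at 57.1, 38.7 and 89.3 FPKM with siCon, against 4.65, 8.92 and 6.77 FPKM with siEchs1 (log2 fold change -2.97 ± 0.35, adjusted p = 9.13e-05).

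Cell cycle genes went in both directions. DNA replication gave 11 higher (19.3%) and 8 lower (14.0%) of 57. Mitosis and spindle genes gave 10 (19.2%) and 12 (23.1%) of 52, beside 21.9% and 26.9% of all genes tested. Without siEchs1 E2C library 3 replication gave 18 higher and 13 lower, and mitosis 18 higher. Without siEchs1 library 1 replication gave 7 higher. Cyclin E1 (Ccne1) was at 195, 192 and 289 FPKM with siCon, against 28.9, 25.9 and 12.6 FPKM with siEchs1 (log2 fold change -3.32 ± 0.40, adjusted p = 9.57e-05). The clamp loader subunit Rfc3 was at 10.6, 5.4 and 5.23 FPKM with siCon, against 90.5, 90.4 and 86.8 FPKM with siEchs1 (log2 fold change 3.55 ± 0.73, adjusted p = 0.00183). The checkpoint kinase Bub1b was at 9.78, 12.9 and 18.98 FPKM with siCon, against 278, 224 and 306 FPKM with siEchs1 (log2 fold change 4.22 ± 0.76, adjusted p = 0.000786). The phosphatase Cdc25c was at 113, 91.9 and 169 FPKM with siCon, against 9.05, 16.9 and 7.37 FPKM with siEchs1 (log2 fold change -3.41 ± 0.43, adjusted p = 0.000113). Ccnb1, the mitotic cyclin B1, was at 683, 811 and 1179 FPKM with siCon, against 561, 674 and 743 FPKM with siEchs1 and did not pass (adjusted p = 0.309).

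Genes of pluripotency, trophectoderm and primitive endoderm, most of them known from later cleavage, were lower in 24 (52.2%) and higher in 3 (6.52%) of 46 cases, with a median of -1.62. Of these, 7 were higher without siEchs1 E2C library 3. Epcam, an epithelial adhesion molecule, was at 91.96, 169 and 177 FPKM with siCon, against 10.8, 19.9 and 1.63 FPKM with siEchs1 (log2 fold change -4.02 ± 0.69, adjusted p = 0.000578). Fgf4, the growth factor of the inner cell mass, was at 28.7, 25.8 and 34.3 FPKM with siCon, against 2.02, 1.36 and 0.15 FPKM with siEchs1 (log2 fold change -3.91 ± 0.36, adjusted p = 4.90e-05). Klf5 was at 48.2, 42.5 and 38.3 FPKM with siCon, against 4.77, 2.76 and 1.66 FPKM with siEchs1 (log2 fold change -3.5 ± 0.40, adjusted p = 8.01e-05) and the tight junction gene Cldn6 at 79.96, 114 and 76.4 FPKM with siCon, against 5.97, 9.26 and 4.4 FPKM with siEchs1 (log2 fold change -3.62 ± 0.46, adjusted p = 0.000112). The groups did not overlap for the 4 genes. Dppa5a, the most abundant uncalled member, was at 486, 689.6 and 2208 FPKM with siCon, against 3040.1, 2347 and 1793 FPKM with siEchs1 (adjusted p = 0.286, and 0.0191 without that library). Of the 6 markers of later lineages checked as ones that a 2-cell embryo should lack, none was listed at 0 in all libraries. They summed to 83.3 to 143 FPKM in siCon and 11.8 to 44.1 FPKM in siEchs1. In siCon this was mostly through Gata4, which was at 87.2, 61.9 and 132 FPKM with siCon, against 12.5, 10.8 and 7.2 FPKM with siEchs1. Other markers gave most of the highest siEchs1 sum. Xist, the RNA that silences the X chromosome, was at 0.51, 0.78 and 0.2 FPKM with siCon, against 0.07, 0 and 0.04 FPKM with siEchs1 and under the filter for testing. Ftx, a noncoding neighbour of it, was at 3.06, 3.86 and 1.45 FPKM with siCon, against 0.27, 0.27 and 0.15 FPKM with siEchs1 (log2 fold change -1.57 ± 0.34, adjusted p = 0.00265).

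Outside the lists, the 12 largest increases among called genes with separate groups, a mean of at least 5 FPKM and a symbol that is not a predicted gene also held Gstt2, a glutathione transferase, at 0.4, 0.33 and 0.47 FPKM with siCon, against 87.6, 69.5 and 68.1 FPKM with siEchs1 (log2 fold change 5.76 ± 1.42, adjusted p = 0.00535). Tspan3, a tetraspanin, was at 0.8, 2.31 and 0.77 FPKM with siCon, against 163, 114 and 71.6 FPKM with siEchs1 (log2 fold change 5.66 ± 0.97, adjusted p = 0.000574), Cpsf4l, related to a polyadenylation factor, at 16.7, 15.5 and 14.4 FPKM with siCon, against 677, 781 and 819 FPKM with siEchs1 (log2 fold change 5.52 ± 0.77, adjusted p = 0.000187) and Bloc1s1, of a complex of lysosome-related organelles, at 1.02, 0.93 and 0.66 FPKM with siCon, against 104, 62.5 and 60.8 FPKM with siEchs1 (log2 fold change 5.32 ± 1.27, adjusted p = 0.00456). By the same rule, the 12 largest decreases also held Timd2 at 215, 173 and 561 FPKM with siCon, against 8.42, 19.02 and 0.64 FPKM with siEchs1, Exoc3l2 at 341, 195 and 529 FPKM with siCon, against 10.9, 23.5 and 1.31 FPKM with siEchs1 and the calcium sensor gene Guca1a at 274, 175 and 393 FPKM with siCon, against 9.24, 26.4 and 0.56 FPKM with siEchs1. Tex101 was at 177, 145 and 144 FPKM with siCon, against 7.06, 5.86 and 0.82 FPKM with siEchs1, the thiamine transporter Slc19a3 at 93.8, 71.6 and 241 FPKM with siCon, against 1.3, 6.69 and 1.75 FPKM with siEchs1, the GTPase Rab20 at 219, 209.8 and 494 FPKM with siCon, against 12.4, 16.02 and 2.72 FPKM with siEchs1 and Btbd18 at 189, 121 and 309 FPKM with siCon, against 6.34, 9.96 and 2.72 FPKM with siEchs1. Their log2 fold changes ran from -4.85 (Btbd18) to -5.35 (Timd2), and no siEchs1 value of any of these 7 reached a siCon value.

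A total of 24 genes were at 5 FPKM or more in every siEchs1 library and under 0.5 FPKM in every siCon library, 12 of them protein-coding. In the opposite direction there were 45 genes, 24 of them protein-coding. Examples, chosen after the values were seen, were Gstt2, Akr1c21 (a hydroxysteroid dehydrogenase) at 0.29, 0.17 and 0.04 FPKM with siCon, against 28.04, 30.99 and 9.52 FPKM with siEchs1 and Ifi27l2a (interferon-inducible) at 0.31, 0.14 and 0 FPKM with siCon, against 25.2, 15.96 and 19.7 FPKM with siEchs1 among the first, and Cidea and Slc13a2 (a citrate transporter) at 7.37, 16.9 and 28 FPKM with siCon, against 0.08, 0.46 and 0.08 FPKM with siEchs1 among the others. Uty, a Y-linked gene, belonged to the second set at 11.7, 5.32 and 5.95 FPKM with siCon, against 0, 0.39 and 0.21 FPKM with siEchs1.

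The effect at L2C was compared with that at E2C by the difference of both in the same fit. The difference passed for 3039 genes, 997 above 0 (5.65% of the genes tested) and 2042 below 0 (11.6%). At E2C alone 1934 genes were higher (11.0%) and 1644 lower (9.31%), with a median log2 fold change of 0.15. siEchs1 E2C library 3 stood apart from the other siEchs1 E2C libraries, with 10.4% of its FPKM total in mitochondrial genes against 1.70% and 2.83%. Its Spearman's rho was 0.668 and 0.718 with those libraries and 0.707 to 0.722 with the siCon E2C libraries. Without siEchs1 E2C library 3, 4092 genes passed. The count fell to 1296 without siEchs1 L2C library 3 and rose to 4094 without siEchs1 E2C library 1.

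Some groups that were low at L2C were not low at E2C by their medians, which include siEchs1 E2C library 3. The E2C medians were not recomputed without that library. p53 targets had a median of -1.72 at L2C and -0.13 at E2C, and the difference was below 0 for 9 of 21 genes and above 0 for 0. For pluripotency and trophectoderm genes the medians were -1.62 and 0.20, and 14 of 46 differences were below 0 and 1 above. For ribosome biogenesis they were -0.79 and 0.18, with 17 of 65 below 0 and 0 above. By contrast, snoRNA host genes were lower at both stages (-2.57 and -1.34, 3 differences below 0 and 0 above), as were the 2-cell genes (-2.47 and -1.32, 5 below and 3 above) and the mitochondrially encoded genes (-2.98 and -2.13, 0 below and 0 above). Sesn2 was at 1.38, 1.36 and 1.15 FPKM in siCon E2C and 0.44, 1.11 and 4.43 FPKM in siEchs1 E2C, and the difference of the effects was -3.99 ± 0.71, adjusted p = 0.00562. Nop2 was at 2.03, 3.04 and 3.21 FPKM in siCon E2C and 2.79, 5.31 and 1.81 FPKM in siEchs1 E2C (difference -3.31 ± 0.60, adjusted p = 0.00621). Slc1a5 was at 1.3, 2.04 and 3.66 FPKM in siCon E2C and 0.24, 0.7 and 1.8 FPKM in siEchs1 E2C (difference -3.77 ± 0.64, adjusted p = 0.00516). Each of these 3 was under 6 FPKM in every E2C library, over 60 FPKM in every siCon L2C library and under 20 FPKM in every siEchs1 L2C library. With 1 added to FPKM, such low siCon E2C values leave little room for a decrease at E2C. Of the genes named here, Cidea had the largest difference below 0 (-5.61 ± 0.59, adjusted p = 0.000385), at 0.19, 0.05 and 0.95 FPKM in siCon E2C and 0, 0.05 and 0 FPKM in siEchs1 E2C.

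**Figure D5:**
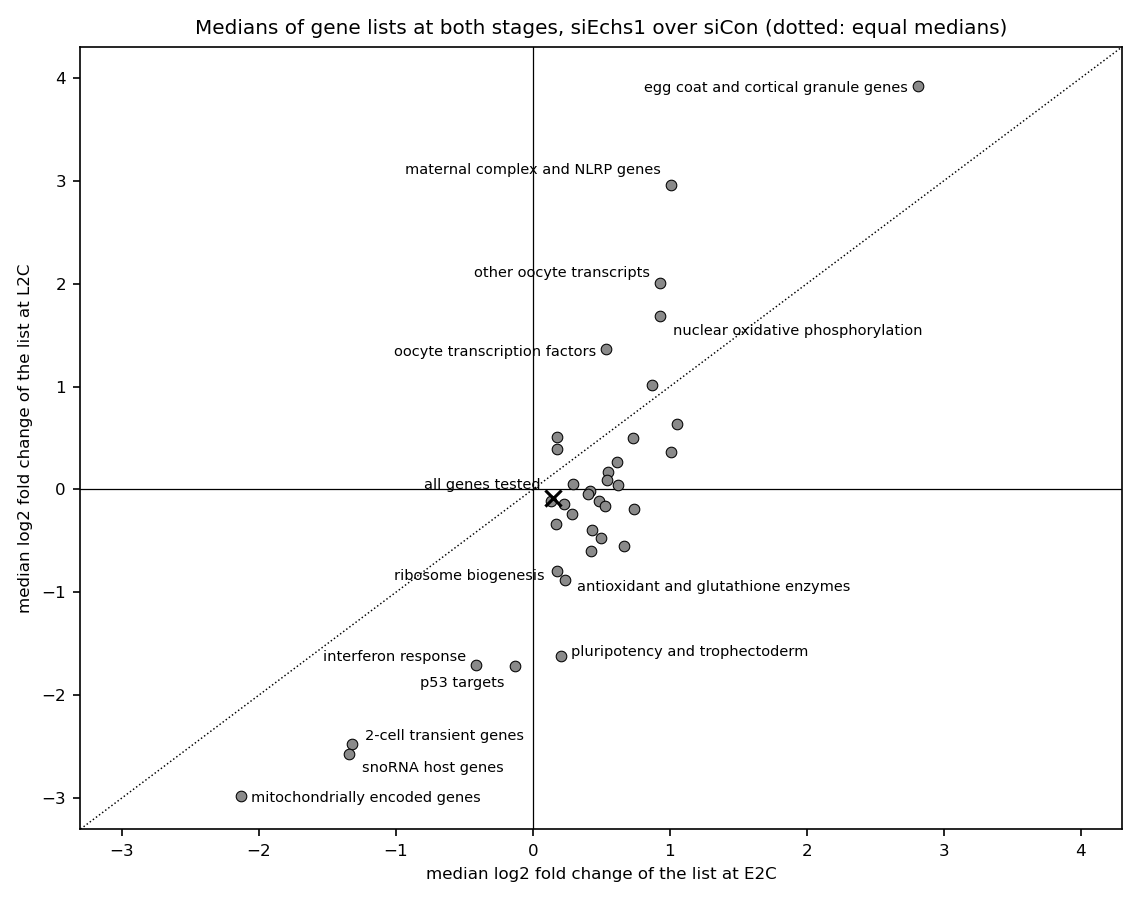
Median log2 fold change (siEchs1 over siCon) of each list with at least 8 tested genes, at E2C on the horizontal and at L2C on the vertical axis; the cross is the median of all genes tested and the dotted line marks equal medians. p53 targets and pluripotency genes lie near 0 at E2C (-0.13 and 0.20) and at -1.72 and -1.62 at L2C.

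Of the called genes under the rule above (separate groups, a mean of at least 5 FPKM), those with the largest differences above 0 were Il17b at 2.53, 2.55 and 0.56 FPKM with siCon, against 52.2, 79.4 and 55.5 FPKM with siEchs1 (difference 5.15 ± 1.27, adjusted p = 0.0192), Sec61g, of the translocation channel of the endoplasmic reticulum, at 19.9, 24.8 and 18.9 FPKM with siCon, against 93.05, 108 and 83.8 FPKM with siEchs1 (difference 4.79 ± 0.51, adjusted p = 0.000406), and Iglc2, Serpinb12, Trav7n-6 and Pde6d, with differences of 4.78, 4.38, 4.33 and 4.2. Iglc2 and Trav7n-6 are gene segments of immune receptors. Below 0, Cidea and Snord55 were followed by Ajap1 (-5.54), Slc5a11 (-5.19), Celf4 (-4.85) and Impdh1 (-4.42). Impdh1, a rate-limiting enzyme of guanine nucleotide synthesis, was at 71.4, 57.6 and 147 FPKM with siCon, against 6.78, 8.47 and 2.03 FPKM with siEchs1 at L2C and at 0.44, 0.73 and 0.75 FPKM in siCon E2C and 0.39, 0.79 and 5.07 FPKM in siEchs1 E2C.

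By position and gene type the calls were spread unevenly. The share of lower genes was highest on chromosomes 11 and X (33.2% each). Protein-coding genes were lower in 26.2% and higher in 24.0% of cases. Unprocessed pseudogenes were lower in 99 of 206 cases and higher in 14, and miRNA genes lower in 26 and higher in 7 of 124. Median exon length of protein-coding genes was 3751 bases for the higher, 4121 for the lower and 4321 for those not called. From the shortest to the longest quintile of protein-coding genes the share of higher genes went from 26.4% to 18.6%, and the share of lower genes from 26.5% to 25.8%. From the least to the most abundant quintile the share of higher genes went from 14.1% to 30.4%.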

How the data were processed

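The authors deposited 1 table of FPKM per library, made, per the submitters' processing notes, with cutadapt 1.16, STAR and the mm10 build; which program and annotation gave the FPKM values is not stated in the sources used here. Libraries were Smart-seq2, paired-end reads of 150 bases, per the labels' protocols. Titles set the groups and replicate numbers; in 2 siEchs1 L2C libraries the number in the file header differs from the title. Symbols occurring more than once were left out, and IDs and positions come from GENCODE M21 (mm10).

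From these, log2(FPKM + 1) of the 12 siRNA libraries was fitted in 1 model with limma 3.58.1 (R 4.3.3; trend and robust variance), for 17652 genes with at least 1 FPKM in 3 or more libraries, with Benjamini-Hochberg adjustment over all of them. The members and the gene lists were chosen with earlier results of these data known, so counts over lists are descriptions. Named genes are the 12 largest changes each way among called genes with separate groups and a mean of at least 5 FPKM, the 6 largest differences each way, and for each list the 4 called genes of largest change and the most abundant gene not called, beside a fixed set; others are marked, and some named by this rule are not reported here. On simulated L2C data for 17652 genes with 200 changed, 62% of changes of 2 and 88% of changes of 3 on the log2 scale were recovered. Of the simulated calls 10.7% were false, more than an adjusted p under 0.05 aims at. The 200 genes were drawn only from those above a set siCon level, and far more genes, 8611, were called in the real data. The simulated shares therefore do not carry over to this comparison. Upstream sequences are RefSeq's. Read depth is unknown. Alternatives were another scaling, filter, pseudocount, variance model and sample set, a replicate block and leaving out each library.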

Additional observations from a re-analysis of the deposited data

Results flagged for a closer look

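The effect of the siRNA at L2C differed from its effect at E2C for 3039 genes by the test of the difference itself (limma, Benjamini-Hochberg adjusted p under 0.05), which is why they are listed here. The values below are the log2 fold change at L2C minus that at E2C for the genes named in the text that passed. The value was below 0 for Cidea (-5.61), Snord55 (-5.58), Ajap1 (-5.54), Slc5a11 (-5.19), Celf4 (-4.85), Impdh1 (-4.42), Sesn2 (-3.99) and Slc1a5 (-3.77). It was also below 0 for Isg15 (-3.74), Exoc3l2 (-3.62), Mir8114 (-3.58), Bag3 (-3.44), Slc13a2 (-3.40), Bbc3 (-3.35), Btbd18 (-3.33), Nop2 (-3.31) and Gata4 (-3.29). Further values below 0 were those of Ldha (-3.27), Ctsa (-3.25), Slc1a1 (-3.22), Trib3 (-3.10), Cdc25c (-3.02), Slc2a3 (-2.98), Hdac1 (-2.80) and Plin1 (-2.72). Smaller ones belonged to Polr1b (-2.70), Psat1 (-2.68), Cdk9 (-2.64), Tdpoz4 (-2.58), Snhg16 (-2.54), Xpo1 (-2.48), Klf5 (-2.47) and Kpna1 (-2.46). Then came Cldn6 (-2.43), Srsf1 (-2.37), Kdm5b (-2.37), Trim43c (-2.33), Ccne1 (-2.33), Mcl1 (-2.32) and Gja1 (-2.31). Below 0 as well were Tsr1 (-2.22), Gadd45a (-2.18), Sirt1 (-2.10) and Snhg15 (-2.02). The value was above 0 for Il17b (5.15), Sec61g (4.79), Iglc2 (4.78), Ftx (4.76), Serpinb12 (4.38), Trav7n-6 (4.33) and Pde6d (4.2). It was also above 0 for Ooep (3.98), Ndufa8 (3.46), Obox1 (3.16), Srebf1 (3.02), Zar1 (2.77), Obox5 (2.53), Eif1b (2.42) and Obox7 (2.35). Further values above 0 were those of Npm2 (2.27), Dld (2.15), Pabpc1l (2.10), Ldhb (2.05), Kpna7 (1.95), Zfp57 (1.88) and Tfb1m (1.81). A value above 0 does not say that a gene rose at L2C: Ftx was lower in siEchs1 at both stages.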

How the results depend on the processing

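Over 22 alternatives 6827 to 10240 genes passed when 1 of the 12 siRNA libraries was left out, with the highest count without siEchs1 E2C replicate 3, and 5472 passed, 2648 of them lower, among the 10266 genes with a mean of at least 5 FPKM, where fewer genes were tested. The number of genes whose effect differed between the stages was the least stable: it was 1869 without a filter on low values, 1894 with a mean of at least 5 FPKM, 1794 with a pseudocount of 0.1, and 1296 to 4094 when 1 library was left out; the cause was not tested. Without siEchs1 L2C replicate 3 it was 1296, and without each siCon replicate in turn it was 1423 to 1960. Quantile normalization moved the median log2 fold change of all genes by 0.11 and rescaling without mitochondrial genes moved it by -0.11; list medians changed sign in 1 list (glycolysis, pyruvate and TCA cycle) and in 3 lists (the same one, crotonyl-CoA genes and DNA replication), and the median of sperm markers became 0 with the second. Of the 178 named genes that passed, 169 passed in every alternative that tested them, 9 lost the call in at least 1, and none reversed. Most of them were named for having the largest changes among called genes in these same libraries. Their kept calls therefore do not measure how stable the other called genes are. Of the 24 that did not pass, 9 passed in at least 1 alternative: Acss2, Btg4, Dppa3, Dppa5a, Hspa8, Mdm2, Npm1, Yeats4 and Zbed3. The 55 counts of list members of 5 or more were recomputed in all 22 alternatives, and 97.4% of these 1210 counts were within 1.5 times the reported count. The drop of the share of the 100 most abundant genes was -4.05 percentage points over nuclear genes alone, against -9.40. Genes present in 1 group alone numbered 8 for siEchs1 and 8 for siCon at 10 FPKM and under 0.5 FPKM, and 2 and 5 at 5 FPKM and under 0.1 FPKM.

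Replicate numbers are shared between the groups, but nothing says that a number marks a shared litter or day. Deviations of L2C libraries with the same title number correlated at 0.111, -0.101 and -0.0864. The siEchs1 libraries titled 2 and 3 are those numbered otherwise in the file headers. With these 2 exchanged, siCon library 2 and siEchs1 library 3 correlated at 0.0875, and siCon library 3 and siEchs1 library 2 at 0.224. The remaining pairs ran from -0.155 to 0.0169. Whether the libraries are paired was not tested. With the replicate block 8306 genes passed (3729 higher and 4577 lower) and 2455 differences, and with the numbers of the file headers as the block 8345 genes passed. A count model was not run, since whole reads were not recovered from the FPKM values, and depth is unknown, so precision rests on the spread between libraries.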

Other observations

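Among genes annotated as miRNA, Mir703 and Mir8114, chosen after their values were seen, moved in opposite directions. Mir703 was at 0, 5.49 and 5.11 FPKM with siCon, against 38.4, 20.4 and 45.3 FPKM with siEchs1 (log2 fold change 3.31 ± 0.61, adjusted p = 0.000893), and Mir8114 was at 131, 141 and 209.7 FPKM with siCon, against 36.9, 23.2 and 20.4 FPKM with siEchs1 (log2 fold change -2.55 ± 0.66, adjusted p = 0.00704). Mir8114 did not pass with a pseudocount of 0.1 (adjusted p = 0.111). These libraries copied poly(A) RNA, so the values are those of longer transcripts at these positions and not of mature miRNAs. Kdm5d, a Y-linked gene, was at 1.6, 1.83 and 1.16 FPKM with siCon, against 1.53, 1.62 and 1.83 FPKM with siEchs1 and did not pass (adjusted p = 0.864), while the Y-linked genes Uty and Eif2s3y were lower; the sex of the pooled embryos was not tested.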
